A study of Mus musculus with 6 samples.

Results

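The genes of meiotic recombinase loading and strand exchange were compared between testes with a conditional knockout of Ppp6r3 (Ppp6r3 cKO) and wild-type testes. They are 9 genes, taken by name from the 54532 in the deposited table: Dmc1, Hsf2bp, Meiob, Spata22, Psmc3ip, Mnd1, Brca2, Swi5 and Sfr1. All 9 were found and all 9 passed the filter on low values. Polyadenylated RNA of whole mouse testis on postnatal day 9 was sequenced, with 3 Ppp6r3 cKO libraries and 3 wild-type libraries. The protein made from Ppp6r3 is a regulatory subunit of protein phosphatase 6. The Cre driver, the deleted exons and the strain are not given in the sources used here, nor is whether each sample is a different animal. The p-values therefore reflect only how far these samples spread, which may be technical.

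In meiosis, programmed DNA breaks are resected to single strands, and recombinases coat these strands and search the homologous chromosome for a match. DMC1 is the recombinase made only in meiosis. BRCA2 loads recombinases on the DNA, HSF2BP (also called MEILB2) holds BRCA2 at meiotic breaks, and MEIOB with SPATA22 binds single-stranded DNA beside the general factor RPA. PSMC3IP (HOP2) and MND1 form the complex that stimulates strand exchange, and SWI5 with SFR1 is an accessory complex of the recombinases, best known from fission yeast. On the day studied, the first germ cells of the mouse testis are entering meiosis.

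The 6 libraries held 15798455 to 16550822 fragments assigned to genes. Ppp6r3 itself stood at 15.8, 15.3 and 14.9 FPKM in Ppp6r3 cKO testes, against 20.8, 21.3 and 21.005 FPKM in wild-type testes (log2 fold change -0.45, SE 0.042, limma adjusted p = 0.00069). FPKM is a count of fragments scaled by exon length and by a factor for each library, here close to but not equal to its total of fragments. The value for Ppp6r3 covers the whole gene and all cells of the tissue. The tissue carried the markers of testis: the 8 germ cell markers summed to 483 to 524 FPKM in Ppp6r3 cKO testes and 610 to 625 FPKM in wild-type testes, and the 8 Sertoli cell markers summed to 1669 to 1839 FPKM in Ppp6r3 cKO testes and 1765 to 1819 FPKM in wild-type testes.

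The promoter windows below belong to the recombinase, to a strand exchange factor and to the recombinase loader. Their GC content was 68.8% in Dmc1, 63.6% in Mnd1 and 54.4% in Brca2. Each is the 250 bases before the RefSeq start on GRCm38.p6, read 5′ to 3′ on the strand of the gene. Capitals mark the GC box CCCCGCC and the cAMP response element TGACGTCA. Dmc1 is shown for chr15:79605110-79605359 on the minus strand, Mnd1 for chr3:84155787-84156036 on the minus strand, and Brca2 for chr5:150522371-150522620 on the plus strand.
Dmc1: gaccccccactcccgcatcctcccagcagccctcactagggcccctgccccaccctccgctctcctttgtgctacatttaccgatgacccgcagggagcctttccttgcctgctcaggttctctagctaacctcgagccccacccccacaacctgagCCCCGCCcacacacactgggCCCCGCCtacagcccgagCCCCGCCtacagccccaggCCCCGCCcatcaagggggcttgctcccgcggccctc
Mnd1: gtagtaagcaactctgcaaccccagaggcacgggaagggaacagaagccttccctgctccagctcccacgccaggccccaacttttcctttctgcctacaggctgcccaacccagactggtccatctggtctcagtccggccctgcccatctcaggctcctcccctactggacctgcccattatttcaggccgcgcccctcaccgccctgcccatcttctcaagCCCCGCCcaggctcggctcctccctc
Brca2: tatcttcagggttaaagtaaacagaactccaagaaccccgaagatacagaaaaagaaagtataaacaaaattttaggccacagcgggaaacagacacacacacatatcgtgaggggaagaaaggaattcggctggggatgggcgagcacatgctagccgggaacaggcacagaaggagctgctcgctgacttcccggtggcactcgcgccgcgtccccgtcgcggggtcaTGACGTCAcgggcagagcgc

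Windows were matched for 8 of the 9 genes. The GC box was searched only in the form CCCCGCC, so a window without it may hold another form. Dmc1 held this form 4 times, in a cluster within 93 bases of its start, and Spata22 and Mnd1 held it once each. The windows of Hsf2bp, Psmc3ip, Brca2, Swi5 and Sfr1 did not hold this form. Over all 27025 promoters of that length, 21.6% held this form at least 1 time on either strand, and the share that held it 4 times was not counted. Brca2 alone of the 8 held the cAMP response element, which 1.62% of promoters held. Both motifs were chosen after these windows had been read. Of motifs named earlier, neither the E-box CACGTG (6.05% of promoters), nor the motif CNCCTCAG of the meiotic transcription factor STRA8 (6.39%), nor the E2F-like core GCGCGAA (1.29%) was found in any of the 8 windows, on either strand. The observed over expected ratio of CpG dinucleotides ran from 0.367 in Mnd1 to 1.07 in Sfr1 and stood above the median of all promoters (0.378) in 7 of the 8. Matches are descriptions of sequence, and 250 bases do not cover all that may control a gene. RefSeq starts can differ from GENCODE: the Hsf2bp window lies inside its GENCODE gene, and the Brca2 start was not found in its GENCODE transcripts. Annotated exons of any gene covered 194 bases of the Hsf2bp window, 192 of Swi5, 106 of Spata22 and at most 74 of the others.

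Dmc1, its loading partner Hsf2bp and the single-strand binding pair Meiob and Spata22 fell by more than 1 on the log2 scale in Ppp6r3 cKO testis. Brca2, Psmc3ip and Mnd1 fell by 0.58, 0.28 and 0.41, and Swi5 and Sfr1 did not pass the test. In all, 7 of the 9 genes fell, none rose and 2 did not pass (limma on log2(FPKM + 0.1), Benjamini-Hochberg adjusted p under 0.05 over 17658 genes). Over all genes tested, 7.86% fell, 7.67% rose and 0.668% fell by more than 1, as 4 of the 9 genes did. The 9 genes were chosen with earlier results of these data known, so these shares are a background and not a test. The median log2 fold change of the 9 genes was -0.58, and that of all genes tested was 0.003. In 8 of the 9 genes every Ppp6r3 cKO library lay below every wild-type library, which held for 18.2% of all genes tested, and Swi5 was the exception. In whole tissue, fewer cells of a type and less RNA per cell cannot be told apart.

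**Figure D1:**
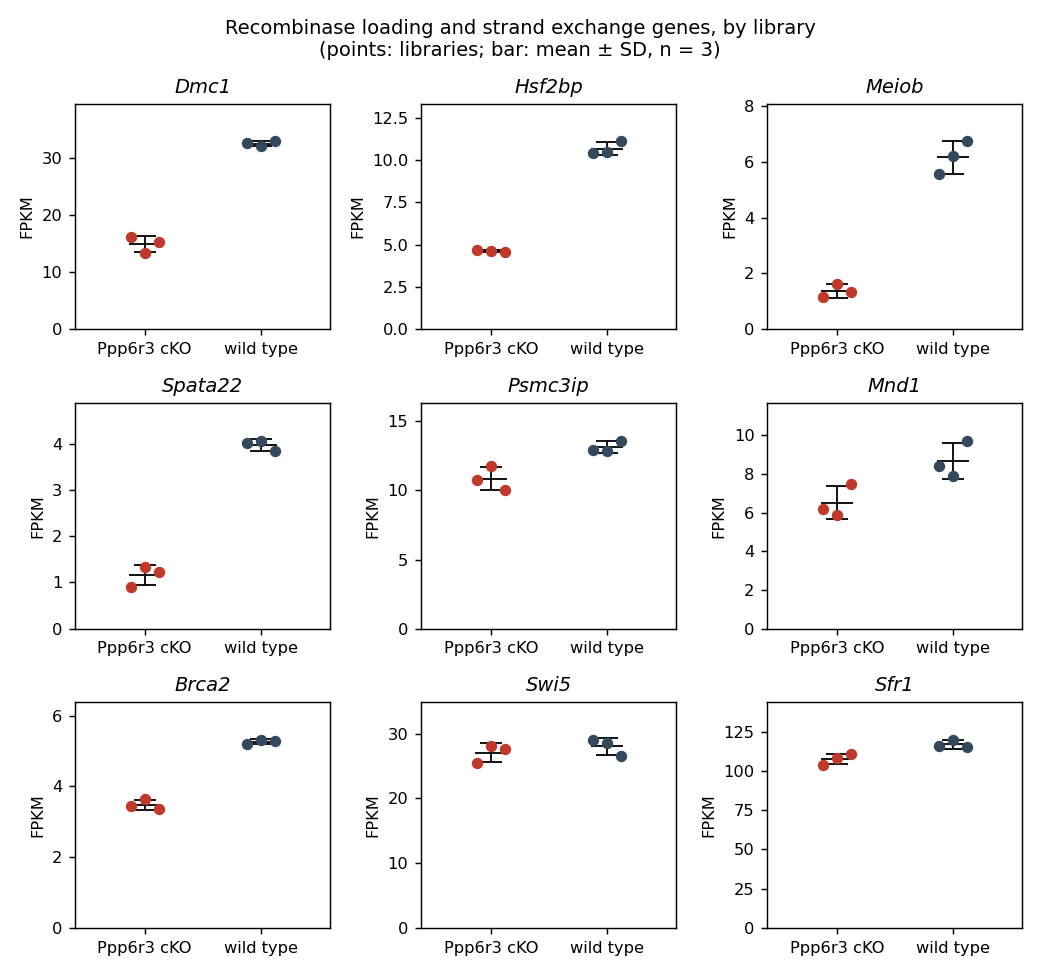
FPKM of each of the 9 genes (vertical axes, from 0) in 3 Ppp6r3 cKO libraries (red, left) and 3 wild-type libraries (dark, right), with the mean and SD. The groups are far apart in Dmc1, Hsf2bp, Meiob, Spata22 and Brca2, close in Psmc3ip, Mnd1 and Sfr1, and they overlap in Swi5.

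Dmc1, the recombinase (chromosome 15 of mm10, bases 79561497 to 79605109, minus strand, protein-coding like the other 8), had 16.1, 13.3 and 15.3 FPKM in Ppp6r3 cKO testes, against 32.5, 31.9 and 32.8 FPKM in wild-type testes. The 3 Ppp6r3 cKO libraries were all well below the 3 wild-type libraries, which lay within 1 FPKM of each other. The mean was 14.9 ± 1.45 FPKM in Ppp6r3 cKO testes and 32.4 ± 0.460 FPKM in wild-type testes (SD, n = 3 each). The log2 fold change was -1.12 (SE 0.068, limma adjusted p = 0.00013), which put Dmc1 at 45.9% of its wild-type level. These values rested on 517 to 642 fragments per library in Ppp6r3 cKO testes and 1277 to 1315 in wild-type testes.

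Brca2, the recombinase loader (chromosome 5, 150522630 to 150570329 on the plus strand), had 3.44, 3.64 and 3.37 FPKM in Ppp6r3 cKO testes, against 5.19, 5.32 and 5.29 FPKM in wild-type testes. The spread within each group was small beside the gap between the groups. Brca2 had a log2 fold change of -0.58 (SE 0.066, limma adjusted p = 0.0016) and stood at 66.2% of wild type, on 743 to 794 fragments in Ppp6r3 cKO testes and 1152 to 1204 in wild-type testes.

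Hsf2bp, the meiotic partner of BRCA2 (chromosome 17, 31944769 to 32036349 on the minus strand), had 4.66, 4.63 and 4.59 FPKM in Ppp6r3 cKO testes, against 10.4, 10.5 and 11.1 FPKM in wild-type testes. The 3 Ppp6r3 cKO libraries were nearly equal. Its log2 fold change was -1.19 (SE 0.053, limma adjusted p = 3.6e-05), the smallest p-value of the 9 genes. Hsf2bp was lower than Brca2 by more: their ratio was 1.35, 1.27 and 1.36 in Ppp6r3 cKO testes and 2.01, 1.97 and 2.10 in wild-type testes. The log2 ratio differed by -0.60 with no overlap, and the exact 2-sided permutation p was 0.1, the smallest that 3 against 3 libraries allow (0.2 adjusted over 4 ratios). Brme1, which encodes the third protein of the BRCA2 and HSF2BP complex, fell by 0.70 (SE 0.066, limma adjusted p = 0.00073). Brme1 stood at 6.90, 6.09 and 6.13 FPKM in Ppp6r3 cKO testes, against 9.94, 10.4 and 10.9 FPKM in wild-type testes.

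Meiob, whose protein binds single-stranded DNA in meiosis (chromosome 17, 24804289 to 24839788 on the plus strand), had 1.15, 1.62 and 1.35 FPKM in Ppp6r3 cKO testes, against 5.55, 6.19 and 6.73 FPKM in wild-type testes. It had the lowest log2 fold change of the 9 genes, -2.10 (SE 0.133, limma adjusted p = 0.00014), and only 5 of the 17658 genes tested had a lower one. Its level was 22.2% of wild type. Counting error is larger here, since the values rested on 32 to 44 fragments per library in Ppp6r3 cKO testes and 157 to 183 in wild-type testes.

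Spata22, whose protein forms a complex with MEIOB (chromosome 11, 73329741 to 73346044 on the plus strand), had 0.910, 1.33 and 1.22 FPKM in Ppp6r3 cKO testes, against 4.02, 4.07 and 3.83 FPKM in wild-type testes. Its log2 fold change was -1.72 (SE 0.140, limma adjusted p = 0.00041), 29.0% of wild type, on 19 to 27 fragments in Ppp6r3 cKO testes and 78 to 86 in wild-type testes. Its level is uncertain: 1025 of its 1274 exon bases also belong to Gm49340, a gene model on the same strand that was listed at 0 in 5 of the 6 libraries, and how fragments of the shared exons were counted is not given in the sources used here. The ratio of Meiob to Spata22 was 1.26, 1.22 and 1.11 in Ppp6r3 cKO testes and 1.38, 1.52 and 1.76 in wild-type testes. The log2 ratio differed by -0.38 (exact 2-sided permutation p = 0.1, adjusted 0.2).

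**Figure D2:**
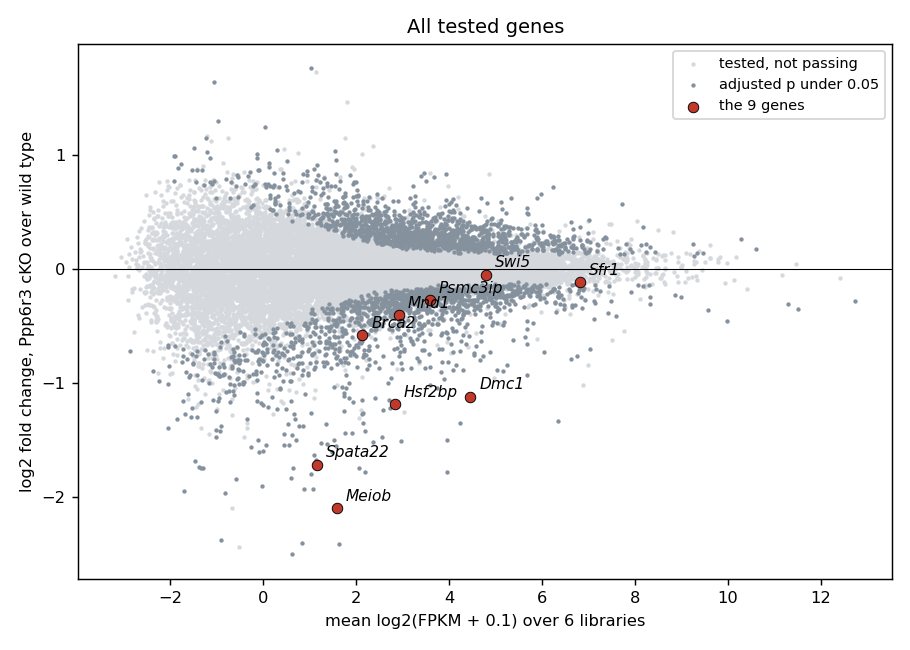
Log2 fold change of Ppp6r3 cKO over wild type (vertical axis) against the mean log2(FPKM + 0.1) over the 6 libraries (horizontal axis) for all 17658 genes tested, with the 9 genes in red and other passing genes in dark grey. Meiob and Spata22 lie among the lowest fold changes, and Sfr1 and Swi5 lie near 0 at high levels.

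The strand exchange pair changed less. Psmc3ip (chromosome 11, 101091823 to 101095436 on the minus strand) had 10.7, 11.7 and 10.1 FPKM in Ppp6r3 cKO testes, against 12.9, 12.9 and 13.6 FPKM in wild-type testes, with a log2 fold change of -0.28 (SE 0.063, limma adjusted p = 0.024). Mnd1 (chromosome 3, 84087933 to 84155786 on the minus strand) had 6.21, 5.86 and 7.51 FPKM in Ppp6r3 cKO testes, against 8.40, 7.92 and 9.73 FPKM in wild-type testes, with a log2 fold change of -0.41 (SE 0.107, limma adjusted p = 0.038). In both genes the groups did not overlap, but the highest Ppp6r3 cKO library lay close to the lowest wild-type library. Both calls were fragile: Psmc3ip did not pass without Ppp6r3 cKO replicate 1 or 3 or any wild-type library (adjusted p = 0.0523 to 0.0863), and Mnd1 did not pass without Ppp6r3 cKO replicate 1 or 2 or any wild-type library (0.0572 to 0.116). The ratio of Psmc3ip to Mnd1 overlapped between the groups, at 1.73, 2.001 and 1.34 in Ppp6r3 cKO testes and 1.54, 1.62 and 1.40 in wild-type testes (exact 2-sided permutation p = 0.5, adjusted 0.5).

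Swi5 (chromosome 2, 32278816 to 32288075 on the minus strand) had 25.5, 28.2 and 27.7 FPKM in Ppp6r3 cKO testes, against 29.1, 28.6 and 26.6 FPKM in wild-type testes. The groups overlapped, and the log2 fold change was -0.05 (95% interval -0.18 to 0.07, limma adjusted p = 0.56). Sfr1 (chromosome 19, 47731682 to 47735588 on the plus strand) had 103.9, 107.9 and 110.6 FPKM in Ppp6r3 cKO testes, against 115.7, 119.8 and 114.9 FPKM in wild-type testes. Its log2 fold change was -0.12 (95% interval -0.21 to -0.03, limma adjusted p = 0.072), which did not pass after adjustment although the groups did not overlap. These values rest on 2317 to 2826 fragments per library in Ppp6r3 cKO testes and 2358 to 3147 in wild-type testes, and neither interval reaches the changes of Dmc1, Hsf2bp, Meiob, Spata22 or Brca2. The ratio of Swi5 to Sfr1 was 0.245, 0.261 and 0.250 in Ppp6r3 cKO testes and 0.251, 0.239 and 0.231 in wild-type testes, which overlapped (exact 2-sided permutation p = 0.3, adjusted 0.4).

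**Figure D3:**
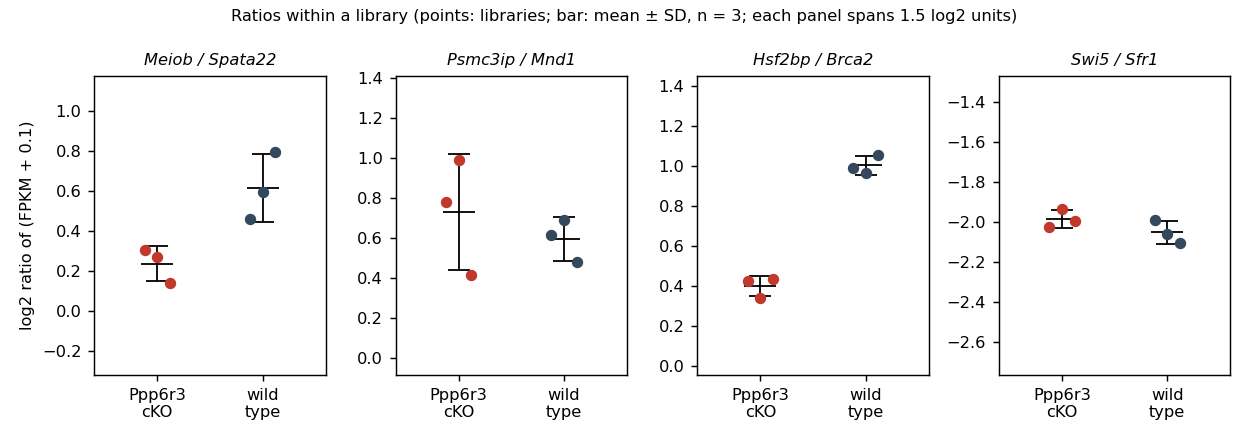
Log2 ratio of (FPKM + 0.1) between partner genes within each library (vertical axes, each spanning 1.5 log2 units) in 3 Ppp6r3 cKO libraries (red, left) and 3 wild-type libraries (dark, right), with the mean and SD. The groups do not overlap for Meiob over Spata22 and Hsf2bp over Brca2, and they overlap for Psmc3ip over Mnd1 and Swi5 over Sfr1.

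By level per length, the order in Ppp6r3 cKO testes was Sfr1, Swi5, Dmc1, Psmc3ip, Mnd1, Hsf2bp, Brca2, Meiob and Spata22, and the neighbours Meiob and Spata22 overlapped. The order in wild-type testes was Sfr1, Dmc1, Swi5, Psmc3ip, Hsf2bp, Mnd1, Meiob, Brca2 and Spata22, with no overlap between neighbours. Mean FPKM ran from 1.15 to 107.5 in Ppp6r3 cKO testes and from 3.97 to 116.8 in wild-type testes. Dmc1 thus stood below Swi5 in Ppp6r3 cKO testes and above it in wild-type testes, and Hsf2bp stood in the same way to Mnd1 and Meiob to Brca2. Levels depend on the exon length used, which for Swi5 (5551 bases) includes exons of all annotated transcripts.

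Markers of other cells moved between the groups as well, and their part in the results was not tested. Of the 8 germ cell markers, there were 4 that fell and 1 that rose (median log2 fold change -0.20). Beside this and the marker counts below stand the shares of all genes tested, 7.86% that fell and 7.67% that rose. Ddx4, a germ cell helicase, was at 44.0, 50.2 and 49.2 FPKM in Ppp6r3 cKO testes, against 52.2, 53.7 and 53.9 FPKM in wild-type testes (log2 fold change -0.16, limma adjusted p = 0.086). Dazl, a germ cell RNA-binding protein, fell by 0.25 (limma adjusted p = 0.045), a call lost without Ppp6r3 cKO replicate 2 or any wild-type library (0.0669 to 0.140). Of 7 tested markers of undifferentiated spermatogonia, 4 rose and none fell (median 0.26), and the eighth, Nanos2, was below 0.5 FPKM in every library and was not tested. Of 5 endothelial markers 4 rose, of 5 macrophage markers 3 rose, of 3 erythroid markers 3 fell, of 4 myoid markers 2 fell, of 8 Sertoli markers 2 rose and of 5 Leydig markers 1 rose. Summed FPKM of the undifferentiated spermatogonia list was 71.9 to 73.8 in Ppp6r3 cKO testes and 56.0 to 58.4 in wild-type testes. The endothelial sum was 33.2 to 37.2 FPKM in Ppp6r3 cKO testes and 22.6 to 24.3 FPKM in wild-type testes, and the macrophage sum was 118 to 127 FPKM in Ppp6r3 cKO testes and 82.6 to 89.0 FPKM in wild-type testes. The myoid sum was 493 to 522 FPKM in Ppp6r3 cKO testes and 584 to 611 FPKM in wild-type testes. The Leydig sum was 190 to 193 FPKM in Ppp6r3 cKO testes and 171 to 178 FPKM in wild-type testes. Most of the Leydig sum was Hsd3b1 (mean 123 FPKM in Ppp6r3 cKO and 103 in wild-type testes). Star was also above wild type in every Ppp6r3 cKO library, Cyp11a1 overlapped, and Cyp17a1 and Insl3 were below in every one. Likewise, the myoid sum was mostly Acta2 (mean 463 FPKM in Ppp6r3 cKO and 552 in wild-type testes) and the Sertoli sum mostly Clu (1081 and 1156). The erythroid sum was 178 to 204 FPKM in Ppp6r3 cKO testes and 289 to 327 FPKM in wild-type testes, and no marker on any list was at 0 in a library.

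The 9 genes were also measured against the mean log2 level of the 8 germ cell markers in the same library. Whether all 9 are transcribed only in germ cells was not tested, so the values are no correction for cell composition. Relative to these markers, Meiob differed by -1.90 between Ppp6r3 cKO and wild type, Spata22 by -1.52, Hsf2bp by -0.99, Dmc1 by -0.92 and Brca2 by -0.38 (log2 units). In these 5 genes the groups did not overlap, and each had an exact 2-sided permutation p of 0.1 (adjusted 0.13 over the 9 genes), the smallest possible. Psmc3ip differed by -0.08 (exact permutation p = 0.4) and Mnd1 by -0.21 (exact permutation p = 0.3), with overlap. Swi5 and Sfr1 stood higher relative to the markers, by 0.15 and 0.08, with no overlap (exact permutation p = 0.1 each). Neither gene rose itself: their log2 fold changes in the direct test were -0.05 and -0.12. The lower marker mean in Ppp6r3 cKO testes gave their higher relative values. The 8 markers ran from -0.79 for Tex101, which fell, to 0.18 for Tex19.1, which rose. How far the relative values depend on a given marker, such as Tex101, was not tested. For comparison, Stra8, which is needed to start meiosis, had a log2 fold change of -1.34 (limma adjusted p = 5.0e-06) in the direct test, and Sycp3 of the synaptonemal complex had -0.80 (adjusted p = 0.0077).

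Other genes of the pathway were taken from 4 lists of 31 measured genes in all, where 9 fell and 1 rose (median log2 fold change -0.09), and without wild-type replicate 3 the number that fell was 5. Beside these counts and those of each list stand the shares of all genes tested, 7.86% that fell and 7.67% that rose. The lists were also chosen with earlier results of these data known. Among 9 recombinase and BRCA partners, 3 fell, none rose and 6 did not pass (median -0.07). Rad51ap2 had 0.826, 0.591 and 0.800 FPKM in Ppp6r3 cKO testes, against 2.14, 2.09 and 2.29 FPKM in wild-type testes (log2 fold change -1.45, SE 0.151, limma adjusted p = 0.0012). Rad51ap1 fell by 0.31 (adjusted p = 0.013, and 0.0555 without wild-type replicate 3). The pseudocount of 1 lowered the size of the Rad51ap2 change to -0.87.

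None of the 3 RPA subunits passed: Rpa1 was at -0.07 (adjusted p = 0.33) and Rpa2 at -0.03 (adjusted p = 0.73). Rpa1 and Rpa2 encode subunits of the general single-strand binding protein beside which MEIOB and SPATA22 act. Among 8 recombinase paralogs and Shu-like factors, Rad51b fell (log2 fold change -0.60, limma adjusted p = 0.036) and 7 did not pass (median -0.11). Of all genes tested 7.86% fell, and 1 of so few genes lies near that share. Rad51b had 0.926, 0.933 and 0.841 FPKM in Ppp6r3 cKO testes, against 1.28, 1.73 and 1.28 FPKM in wild-type testes, and its call was lost without any 1 of the 6 libraries (adjusted p = 0.0605 to 0.113).

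Among 11 other regulators of recombinase filaments, 5 fell, 1 rose and 5 did not pass (median -0.18). Of all genes tested, 7.86% fell and 7.67% rose. Mcmdc2, a relative of the replicative helicases needed for meiotic break repair, fell to 0.433 ± 0.072 FPKM in Ppp6r3 cKO testes, against 0.958 ± 0.075 FPKM in wild-type testes (SD, n = 3 each). Its log2 fold change was -0.997 (limma adjusted p = 0.0083), or -0.45 with a pseudocount of 1. Tex15, required in mouse for loading recombinases on breaks, had 7.89, 8.40 and 9.17 FPKM in Ppp6r3 cKO testes, against 13.8, 14.1 and 14.0 FPKM in wild-type testes (log2 fold change -0.72, adjusted p = 0.00045). The helicase Recql5 fell by 0.36 (adjusted p = 0.027), not passing without Ppp6r3 cKO replicate 3 or any wild-type library. Radx, a single-strand DNA binding protein, rose by 0.36 (adjusted p = 0.030), not passing without any Ppp6r3 cKO library or without wild-type replicate 1 or 3.

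**Figure D4:**
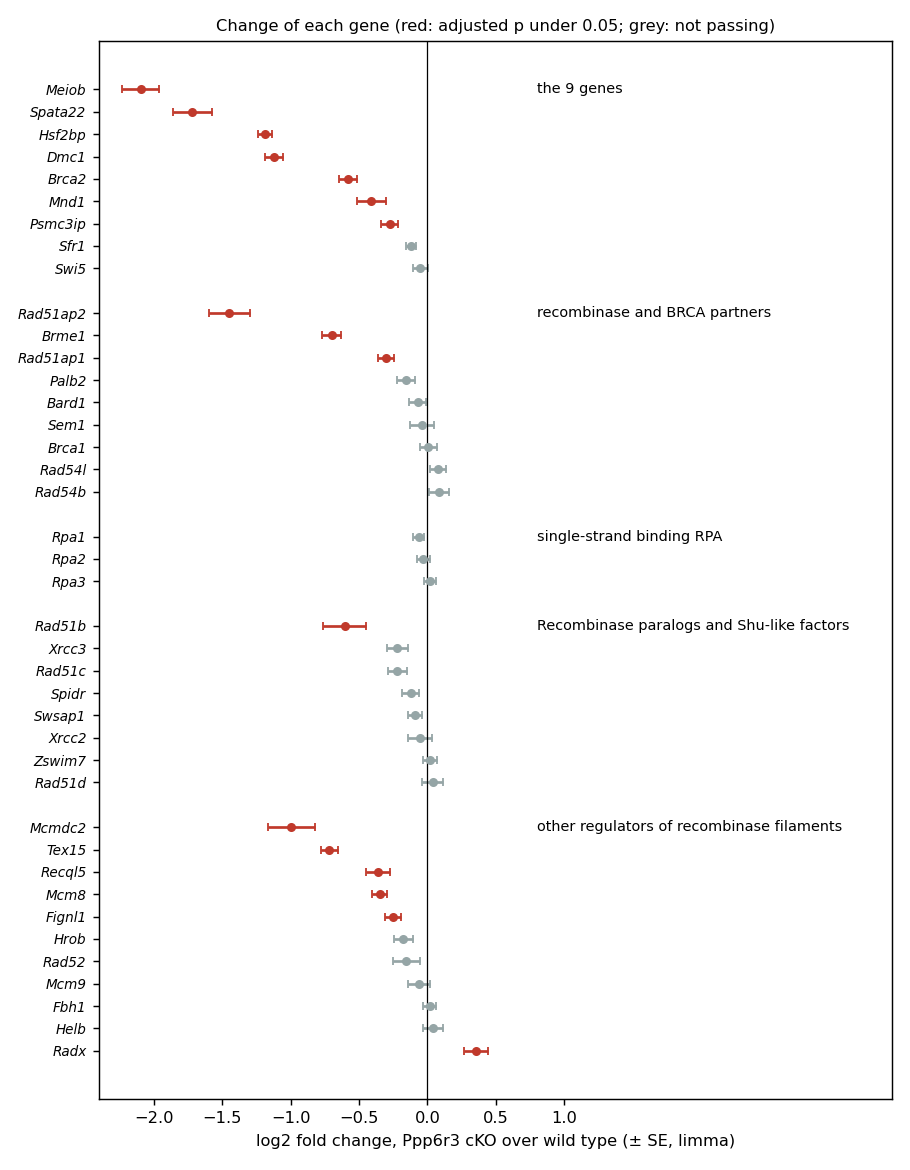
Log2 fold change of Ppp6r3 cKO over wild type with its SE (horizontal axis) for the 9 genes and the 31 other measured genes of the pathway, by list, red where the adjusted p was under 0.05. Falls beyond -1 belong to Meiob, Spata22, Hsf2bp, Dmc1 and Rad51ap2, and Radx is the red point above 0.

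Genes that overlap the 9 in the annotation were examined because the strand setting of the counting is not given in the sources used here. Mlx, on the strand opposite Psmc3ip with 385 shared exon bases, was at -0.02 (limma adjusted p = 0.82). Golga2, opposite Swi5 with 98 shared bases, was at 0.02 (adjusted p = 0.76), and Rrp1b, opposite Hsf2bp with 54, was at -0.20 (adjusted p = 0.0502, and 0.0175 after correction for GC and length). The signs for Mlx and Golga2 changed with the processing. Gm42531, a noncoding model in an intron of Brca2 on its strand, shares no exon base with it. It had 0.362, 0.294 and 0.337 FPKM in Ppp6r3 cKO testes, against 0.550, 0.566 and 0.603 FPKM in wild-type testes (log2 fold change -0.65, adjusted p = 0.034), and its call was lost without any 1 library (0.0514 to 0.105).

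Among 11912 named protein-coding genes outside the 9 with a mean of at least 1 FPKM, those whose profile over the 6 libraries was most like that of Dmc1 were Trim52, Ybx2, Ccnb3, Pbx3 and Prss42. The measure was the distance between log2 profiles centred on the wild-type mean, and it ran from 0.169 for Trim52 to 0.264 for Prss42. With this centring, genes whose change was close in size to that of Dmc1 come out nearest. With Hsf2bp at 0.236, the profile of Hsf2bp was closer to Dmc1 than those of Ccnb3, Pbx3 and Prss42. Trim52 had 2.46, 2.08 and 2.10 FPKM in Ppp6r3 cKO testes, against 4.83, 4.57 and 5.02 FPKM in wild-type testes. The log2 fold change was -1.17 for Pbx3 and -0.99 for Prss42, the latter on 23 to 54 fragments per library. Ybx2, a germ cell RNA-binding protein, had 10.2, 8.43 and 9.01 FPKM in Ppp6r3 cKO testes, against 20.3, 17.8 and 19.2 FPKM in wild-type testes. Ccnb3, a cyclin of meiosis, had 2.11, 2.001 and 2.43 FPKM in Ppp6r3 cKO testes, against 4.63, 4.65 and 4.40 FPKM in wild-type testes.

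In Ppp6r3 cKO replicate 1 the values moved with GC content, with a median log2 deviation of -0.111 among the tenth of genes lowest in GC and 0.126 among the highest. The 9 genes have 39.7% to 49.7% GC. Without Ppp6r3 cKO replicate 1, Dmc1 was at -1.18, Hsf2bp at -1.19, Meiob at -1.99, Spata22 at -1.57 and Brca2 at -0.57 (limma adjusted p = 0.00039 to 0.0058), and 5 of the 9 genes passed. After correction for GC and length the same 5 passed, and Sfr1 went to -0.01.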

How the data were processed

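Total RNA was extracted with TRIzol, poly(A) RNA was selected, and a KAPA kit that keeps strand was used, per the labels' protocols. Reads were aligned to mm10 with HISAT2 2.0.5 per the design text of the labels, and DESeq2 is named, with no role, in the submitters' processing notes. The counting tool and annotation are not given in the sources used here. The deposited values are FPKM, although the table is called raw counts.

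FPKM times exon length gave whole fragments (tolerance 0.01) in every library for 31625 of 32589 genes above 0 (97.0%) with GENCODE M21 lengths and for the other 964 with another length, Hsf2bp (2973 bases), Meiob (1703) and Sfr1 (1583) among them. Depth is the sum of these fragments, which was 98.92% to 100.69% of the library factor behind the FPKM. The median-ratio factors of the deposited FPKM were equal in all libraries (1.0037), so median-ratio scaling leaves each value unchanged but for a constant.

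Genes with at least 10 fragments in at least 3 libraries were tested as log2(FPKM + 0.1) with limma 3.58.1 in R 4.3.3 (trend, robust, 2-sided). Fold changes, being on that scale, are too small for low genes. The fit was also run on simulated data with the same extra spread for every gene and library and no GC trend. That run cannot show how the fit handles the uneven noise and GC trend of the real libraries. Ratios and levels relative to markers were tested by exact permutation. The members and gene lists were chosen with earlier results of these data known. Named were the 9 genes, up to 4 passing genes per pathway list by size of change (the 2 of smallest p where none passed), overlapping genes tested, the 5 genes nearest Dmc1, and Ppp6r3, Ddx4, Dazl, Stra8 and Sycp3. Of 90 listed symbols 86 matched GENCODE, 3 matched through RefSeq and 1, Firrm, was not matched. 1 further gene of the pathway, with the ratio that used it, is not reported here. Alternatives changed the pseudocount, filter, model, scaling, GC and length (splines with 5 degrees of freedom), variance estimation, replicate block and libraries. Python 3.11.15 was used. Promoters are from RefSeq on GRCm38.p6, and coordinates of genes from GENCODE M21 on GRCm38 (mm10).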

Additional observations from a re-analysis of the deposited data

How the results depend on the processing

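Of the 9 genes, Dmc1 (-1.18 to -1.02), Hsf2bp (-1.21 to -1.05), Meiob (-2.22 to -1.60), Spata22 (-1.82 to -1.21) and Brca2 (-0.61 to -0.48) passed under all 16 alternatives. Among these, median-ratio scaling changed values only by a constant and so was no separate check. Psmc3ip was lost with no filter (-0.276), after GC and length correction (-0.195), with the replicate block (-0.276) and with neither trend nor robust estimation (-0.276). Mnd1 was lost with no filter (-0.409), the minimum of 0.5 FPKM (-0.409), GC and length correction (-0.295) and neither trend nor robust estimation (-0.409). Sfr1 passed with voom (-0.133). Without 1 library, Psmc3ip ran from -0.334 to -0.224, Mnd1 from -0.513 to -0.325, and 5 or 6 of the 9 fell.

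Over all genes, 1508 passed with no filter (768 fell, 740 rose), 1710 with neither trend nor robust estimation (893 fell, 817 rose), and with voom 2147 fell. Without 1 library 1242 to 2396 passed, 642 to 1276 fell and 600 to 1120 rose. Of recombinase paralogs and Shu-like factors, 0 fell with no filter, with the minimum of 0.5 FPKM and with the block, 3 with voom, and 0 to 1 without 1 library. Of other filament regulators, 3 fell and 0 rose with no filter and with neither trend nor robust estimation, and 3 to 6 fell and 0 to 1 rose without 1 library. Of the 4 pathway lists together, 0 rose with no filter and with neither trend nor robust estimation, and 5 to 9 fell and 0 to 1 rose without 1 library. Signs turned, none in a called gene, for Rpa2 after GC and length correction (0.0056) and without 1 library (-0.069 to 0.00015), for Mlx after that correction (0.04996) and without 1 library (-0.052 to 0.014), and for Golga2 after that correction (-0.025) and without 1 library (-0.0014 to 0.058). The cause was not tested, except that fewer libraries were then used.

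Same-numbered libraries shared no large deviation: their deviations correlated at -0.007 to 0.014 across genes. This cannot show whether the samples were paired by litter or handling, which the labels do not give. The fit with the replicate block moved no count of the 9 genes by over 1.5 times (6 fell). Few fragments limit Meiob and Spata22.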
